A study of Mus musculus with 16 samples.

Results

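The transcripts described here are 34 markers of immune cells other than the type 1 conventional dendritic cell (cDC1), measured in cells that had been sorted as cDC1. They mark type 2 conventional dendritic cells (cDC2), monocytes, macrophages, neutrophils and plasmacytoid dendritic cells. They were chosen by name, with earlier results of these data known. The brightest probe set that carries 1 gene symbol stands for each gene. Of the 34, 32 were measured, of 19938 genes in all, each by 1 such probe set. Ly6c2 shares both of its probe sets with Ly6c1, and Runx2 is not analysed here. The cells came from C57BL/6 mice of the genotype WDFY4 Het or WDFY4 KO, so that the Het cells serve as the control although they too carry 1 altered copy of Wdfy4, whose product cDC1 use in cross-presentation of antigen from other cells. All mice, the controls included, bore tumours of a regressor type in the back flank, and inguinal lymph nodes of the tumour's side (draining) or of the other side (non-draining) were taken on day 6, so no group came from a mouse without a tumour. The nodes were digested with Collagenase B and DNaseI before the sort. The sources used here give no sort gate, tumour line or age of the mice. Each of the 4 combinations of genotype and node formed a group of 4 arrays, numbered 1 to 4.

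Conventional dendritic cells fall into a cDC1 branch, which presents antigen to CD8 T cells, and a cDC2 branch, which expresses the surface proteins SIRPα and CD11b and is known for priming CD4 T cells. Lymph nodes also hold resident macrophages of the subcapsular sinus and medulla, recruited monocytes, few neutrophils unless inflamed, and plasmacytoid dendritic cells, the main producers of type I interferon on viral sensing. The genes below are used as markers of these cells, but several of them, among them the lysozyme and Fc receptor genes, are known to be expressed at some level by more than one myeloid type. In a sorted bulk sample, fewer cells of a type and less RNA per cell cannot be told apart.

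Values are RMA intensities on a linear scale, and the median intensity of an array lay between 38.6 and 40.8. Since no detection call comes with them, a floor was taken on each array as the 95th percentile of 1015 olfactory receptor genes, known for their use in the olfactory epithelium. It lay between 29.1 and 35.2. All 19 genes on the cDC1 identity list, Xcr1, Clec9a and Batf3 among them, were above the floor on every array. Of the 32 members, 16 were above it on all 16 arrays, 12 on some and 4 on none, while 52.9% of all genes were above it on every array and 32.3% on none. The floor does not separate expressed from silent genes sharply, since 4 of 20 genes of other organs were above it on every array. Whether each array of a group stands for a mouse of its own is not stated in the labels, so the p-values cover only the spread of these arrays, which can be technical, and their number limits the precision.

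**Figure D1:**
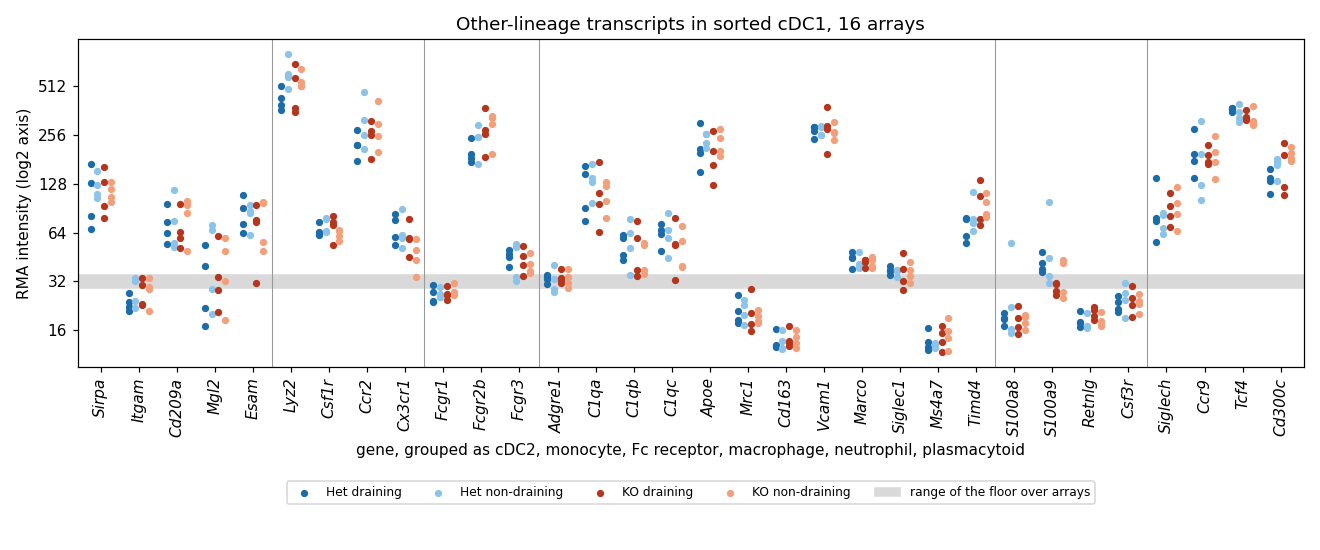
RMA intensity (log2 axis) of the 32 measured genes on each of the 16 arrays, 1 point per array, coloured by group and ordered by lineage. The grey band is the range of the floor over arrays (29.1 to 35.2). Lyz2, Tcf4, Vcam1 and Ccr2 lie above the band on every array, and Cd163, Ms4a7, Mrc1 and Retnlg lie under the floor of their array on every array.

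Among the cDC2 markers, Sirpa and Cd209a were above the floor on all 16 arrays. Sirpa encodes the inhibitory receptor SIRPα, which binds CD47. The intensities of Sirpa in arrays 1 to 4 were 67.2, 80.9, 171 and 129.6 in Het draining and 104, 110.1, 154 and 126 in Het non-draining cells. They were 162, 79.0, 131 and 93.7 in KO draining and 106, 99.3, 131 and 119 in KO non-draining cells. The lowest array was Het draining 1 and the highest Het draining 3, so the Het draining group alone spanned the whole range, and all groups overlapped. The difference of KO from Het in log2(intensity + 1), the scale of all differences below, was 0.095 ± 0.26 (SE) for Sirpa on the draining side and -0.11 ± 0.26 on the other. Cd209a, a DC-SIGN-related lectin gene, ranged from 49.6 to 117 and Esam, an adhesion gene that marks a Notch2-dependent cDC2 subset, from 31.3 to 109, with Esam under the floor on 1 array, KO draining 2. Mgl2, the gene of the lectin CD301b on dermal cDC2, ranged from 16.9 to 71.5 and was above the floor on 8 of 16 arrays. Its SD within groups was 0.75 on the log2 scale, higher than that of 99.9% of all genes. Itgam, which encodes CD11b, ranged only from 20.9 to 33.8 and was above the floor on 6 arrays. A further 3 Itgam probe sets, which also carry the symbol Rpl35, were not used.

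All 4 measured monocyte markers were above the floor on every array. Lyz2 encodes lysozyme M. The intensities of Lyz2 in arrays 1 to 4 were 366, 393, 513 and 434 in Het draining and 493, 811, 606 and 581 in Het non-draining cells. They were 375, 354, 704 and 579 in KO draining and 542, 653, 515 and 512 in KO non-draining cells. The 3 lowest of the Het draining values lay under every Het non-draining value, and the highest value of all was Het non-draining 2. Ccr2 encodes the receptor through which monocytes leave the bone marrow. Ccr2 gave 222, 222, 277 and 178 in the Het draining arrays 1 to 4, 211, 471, 315 and 255 in Het non-draining, 181, 254, 314 and 269 in KO draining and 299, 415, 252 and 201 in KO non-draining cells. Its highest arrays were number 2 of both non-draining groups, and the groups overlapped. Csf1r, the receptor gene for the growth factor of monocytes and macrophages, had an SD within groups of 0.17 on the log2 scale. Csf1r gave 64.9, 62.7, 74.0 and 61.5 in the Het draining arrays 1 to 4, 65.6, 77.3, 78.5 and 64.6 in Het non-draining, 74.6, 71.6, 81.5 and 53.4 in KO draining and 60.6, 65.7, 66.4 and 56.5 in KO non-draining cells. The KO draining group held both the lowest and the highest value, and all groups overlapped. Cx3cr1 encodes the fractalkine receptor of patrolling monocytes and resident myeloid cells. Cx3cr1 gave 53.7, 59.8, 76.7 and 83.6 in the Het draining arrays 1 to 4, 51.2, 61.7, 89.6 and 58.9 in Het non-draining, 44.9, 77.4, 58.3 and 59.5 in KO draining and 49.9, 34.1, 43.5 and 58.0 in KO non-draining cells. The KO non-draining arrays held the 2 lowest values, and the highest of that group overlapped with both Het groups.

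Of the Fc gamma receptor genes, which let myeloid cells bind antibody-coated material, only Fcgr2b was above the floor on every array. Fcgr2b encodes the inhibitory receptor and is also the Fc receptor of B cells. The intensities of Fcgr2b in arrays 1 to 4 were 195, 174, 246 and 185 in Het draining and 250.4, 296, 249 and 169 in Het non-draining cells. They were 188, 259.6, 374 and 276 in KO draining and 334, 324, 298 and 196 in KO non-draining cells. Both KO groups had the higher means, but in each node the KO and Het arrays overlapped. Fcgr3, the activating receptor gene of the same cluster on chromosome 1, ranged from 32.1 to 54.7 and was above the floor on 14 arrays. Fcgr1, the high-affinity receptor gene used to tell macrophages and monocyte-derived cells from dendritic cells, ranged from 23.8 to 31.3 and was above the floor on 2 arrays.

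Of the 12 macrophage markers, C1qa, Apoe, Vcam1, Marco and Timd4 were above the floor on every array and 3 on none. Cd163, the haemoglobin scavenger receptor gene (12.2 to 17.1), Mrc1, the mannose receptor gene (15.8 to 28.8), and Ms4a7 (11.7 to 19.1) were under the floor on all 16 arrays. Adgre1, which encodes F4/80, was above it on 8 arrays (27.6 to 40.5) and Siglec1, the CD169 gene of sinus macrophages, on 15 (28.5 to 47.7). Marco, a scavenger receptor gene of medullary macrophages, stayed in a band from 38.1 to 48.8, above the floor on every array. Vcam1, an adhesion gene of macrophages and stromal cells, had overlapping groups. Vcam1 gave 286, 242, 287 and 272 in the Het draining arrays 1 to 4, 254, 256, 293 and 285 in Het non-draining, 380.1, 195, 279 and 291 in KO draining and 265, 239.5, 267 and 309 in KO non-draining cells. The KO draining group held both the lowest and the highest value. Timd4 encodes TIM-4, a receptor for phosphatidylserine on dying cells. The intensities of Timd4 in arrays 1 to 4 were 79.1, 77.2, 61.0 and 55.4 in Het draining and 77.4, 114, 65.4 and 72.9 in Het non-draining cells. They were 77.6, 135, 107 and 71.5 in KO draining and 83.1, 98.6, 112 and 79.5 in KO non-draining cells. The 4 Het draining values included the 2 lowest of all 16, and KO draining 2 was the highest, but KO draining 1 and 4 lay within the Het draining range.

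C1qa, C1qb and C1qc, which lie side by side on chromosome 4, encode the 3 chains of the complement component C1q, and Apoe encodes apolipoprotein E. C1qa gave 91.1, 75.1, 166 and 147 in the Het draining arrays 1 to 4, 131, 97.5, 169 and 138 in Het non-draining, 95.9, 64.9, 174 and 113 in KO draining and 99.7, 79.2, 124 and 130.5 in KO non-draining cells. C1qb gave 46.3, 43.6, 59.6 and 61.5 in the Het draining arrays 1 to 4, 51.2, 34.9, 63.9 and 77.9 in Het non-draining, 37.5, 34.6, 75.1 and 59.3 in KO draining and 35.5, 37.6, 55.0 and 53.9 in KO non-draining cells. In both genes the arrays numbered 3 and 4 were above the arrays numbered 1 and 2 within every group, while the groups themselves overlapped. C1qc gave 62.8, 49.0, 66.5 and 71.8 in the Het draining arrays 1 to 4, 59.0, 44.4, 66.2 and 84.1 in Het non-draining, 53.4, 32.6, 79.1 and 54.3 in KO draining and 39.5, 39.8, 56.6 and 70.4 in KO non-draining cells. Apoe gave 198, 150.3, 210.2 and 305 in the Het draining arrays 1 to 4, 229, 212, 259 and 260.5 in Het non-draining, 168, 126, 272 and 204 in KO draining and 205, 189, 244 and 278 in KO non-draining cells. The same order held in these 2 genes. KO minus Het differences of C1qa were -0.11 ± 0.28 in the draining node (95% interval -0.71 to 0.49) and -0.30 ± 0.28 in the non-draining node (-0.91 to 0.30), and neither passed in limma. The labels do not say what the numbers stand for.

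**Figure D2:**
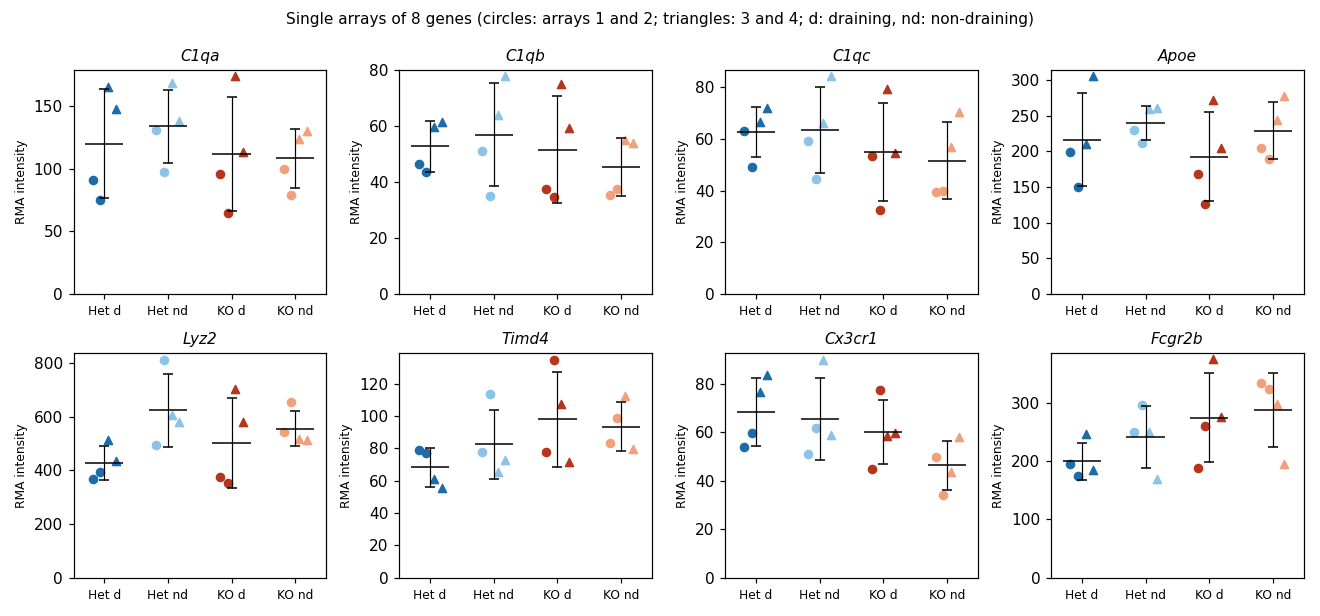
RMA intensity (linear axis from 0) of 8 genes by group, 1 point per array; circles are arrays 1 and 2, triangles arrays 3 and 4, and the black line with its bar is the mean ± SD of 4 arrays. In C1qa, C1qb, C1qc and Apoe the triangles lie above the circles within each group; for Lyz2, the Het draining mean is 426 and the Het non-draining mean 623.

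Bases upstream of C1qb and C1qc, from the RefSeq promoter table on GRCm38.p6, are shown because these neighbouring genes had the highest correlation across arrays among the pairs examined below; C1qa had no entry in the table used. The C1qb window is chr4:136886201-136886450 and the C1qc window chr4:136892937-136893164, both on the minus strand, 5′ to 3′. The table's window of 250 bases is whole for C1qb; for C1qc the 22 bases that lie within the gene's annotated bounds are left out, and positions are counted from those bounds. Capitals mark matches on either strand to TGCTGAC (a MAF binding motif), GAGGAAGT (the PU.1 motif) or TTNNGCAA (a C/EBP motif).
C1qb: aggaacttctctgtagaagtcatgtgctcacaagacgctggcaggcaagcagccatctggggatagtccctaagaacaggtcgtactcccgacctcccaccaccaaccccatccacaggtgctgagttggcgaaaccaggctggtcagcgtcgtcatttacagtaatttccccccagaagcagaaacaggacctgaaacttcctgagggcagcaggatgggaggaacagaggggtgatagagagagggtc
C1qc: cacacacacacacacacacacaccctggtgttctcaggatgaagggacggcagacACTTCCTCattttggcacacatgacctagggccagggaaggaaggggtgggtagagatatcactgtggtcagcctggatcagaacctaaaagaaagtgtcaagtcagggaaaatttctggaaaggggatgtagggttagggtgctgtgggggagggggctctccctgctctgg
The C1qb window held no match and the C1qc window 1, to the PU.1 motif, 173 to 166 bases upstream of the gene. These motifs were found in 3.81%, 2.44% and 9.57% of the 32841 windows of 250 bases over all genes, and no match overlapped another in the windows shown. Of the 34 genes, 26 had a window; 2 of these held the MAF motif, 3 the PU.1 motif and 5 the C/EBP motif.

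No neutrophil marker was above the floor on every array. Retnlg, a resistin-like gene, was under the floor on all arrays (16.5 to 22.1), and Csf3r, the G-CSF receptor gene (18.9 to 31.1), and S100a8 were each above it on 1 array. S100a8 and S100a9 encode the 2 chains of calprotectin, an abundant cytosolic protein of neutrophils. S100a8 gave 20.5, 18.7, 19.1 and 17.0 in the Het draining arrays 1 to 4, 16.3, 22.4, 55.5 and 15.3 in Het non-draining, 19.1, 22.5, 15.1 and 16.7 in KO draining and 17.6, 19.9, 19.4 and 16.1 in KO non-draining cells. S100a9 gave 38.4, 41.7, 48.6 and 36.6 in the Het draining arrays 1 to 4, 31.3, 34.7, 99.0 and 44.6 in Het non-draining, 31.3, 26.5, 30.8 and 27.7 in KO draining and 25.4, 43.1, 41.7 and 27.6 in KO non-draining cells. For both genes Het non-draining 3 stood far above the other 15 arrays. Of 19 other neutrophil and granulocyte genes, 4 were also highest on that array (Clec4d, Epx, Lcn2 and Ngp, named after their values were seen). Of these, Clec4d, Epx and Ngp were under the floor on every array, and Lcn2 was above it on 2 arrays. In all, 13 of the 19 genes, the defining marker Ly6g included, were under the floor on every array. The summed intensity of the 19 genes was 449.7 to 510.1 over the Het non-draining arrays and 422 to 524 over the Het draining arrays. The part of neutrophils in these values was not tested.

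The windows upstream of this gene pair are shown because both were far above the rest on the same array: chr3:90668821-90669070 on the plus strand for S100a8 and chr3:90695722-90695971 on the minus strand for S100a9, from the same RefSeq table and with capitals as above.
S100a8: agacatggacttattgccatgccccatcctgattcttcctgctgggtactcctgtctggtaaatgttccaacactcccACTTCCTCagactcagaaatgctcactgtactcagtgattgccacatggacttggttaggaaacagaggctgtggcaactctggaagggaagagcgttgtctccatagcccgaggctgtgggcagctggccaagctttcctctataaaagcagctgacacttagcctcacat
S100a9: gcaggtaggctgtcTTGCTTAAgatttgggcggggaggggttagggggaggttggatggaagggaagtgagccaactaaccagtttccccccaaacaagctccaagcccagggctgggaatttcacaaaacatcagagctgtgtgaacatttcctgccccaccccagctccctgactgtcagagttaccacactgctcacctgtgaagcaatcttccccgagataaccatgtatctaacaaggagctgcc
The S100a8 window held 1 match, to the PU.1 motif, 172 to 165 bases upstream of the gene, and the S100a9 window 1, to the C/EBP motif, 236 to 229 bases upstream.

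All 4 measured plasmacytoid markers were above the floor on every array. Tcf4 encodes E2-2, the transcription factor that sets plasmacytoid identity, and is also used by other cells. The intensities of Tcf4 in arrays 1 to 4 were 373, 368, 375 and 356 in Het draining and 400.0, 308, 354 and 327 in Het non-draining cells. They were 365, 329, 319 and 321 in KO draining and 295, 389, 302 and 311 in KO non-draining cells. The arrays lay close together and the groups overlapped. Cd300c encodes a receptor of the CD300 family. Cd300c gave 132, 138, 158 and 111 in the Het draining arrays 1 to 4, 133, 174, 181 and 167 in Het non-draining, 122, 109, 228 and 193 in KO draining and 197, 216, 177 and 183 in KO non-draining cells. KO draining 1 and 2 were among the lowest values and KO draining 3 was the highest of all. Siglech, the gene of the plasmacytoid lectin Siglec-H, ranged from 55.6 to 139.7. Ccr9, a chemokine receptor gene of mature plasmacytoid cells, ranged from 101 to 311, and unlike the C1q genes it was lower on arrays 3 and 4 than on arrays 1 and 2 in 3 of 4 groups.

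KO and Het cells of the draining node address whether loss of WDFY4 goes with a change of the sorted cells where tumour antigen arrives. KO cells stood higher in Timd4 and Fcgr2b and lower in S100a9, and none of these differences passed over all genes. Timd4 averaged 68.2 ± 11.8 in Het and 97.8 ± 29.1 in KO arrays (mean ± SD, n = 4 each, as for the means below), a difference of 0.48 ± 0.20 (unadjusted p = 0.0294 in limma, exact two-sided permutation p = 0.143). Fcgr2b was 275 ± 76.6 in KO and 200.0 ± 31.8 in Het arrays, a difference of 0.43 ± 0.21 (exact permutation p = 0.0857). Single arrays moved both values: Timd4 differed by 0.32 without KO draining 2 and Fcgr2b by 0.26 without KO draining 3. S100a9 was 29.1 ± 2.3 in KO and 41.3 ± 5.3 in Het arrays, and every Het array lay above every KO array; it differed by -0.49 ± 0.27 (unadjusted p = 0.0858 in limma, exact permutation p = 0.0286, the smallest that 4 against 4 arrays allow). Of the 4 KO draining arrays 2 had S100a9 above the floor. The spread in limma is shared by all groups and holds Het non-draining 3, where S100a9 stood at 99.0. The unadjusted p for S100a9 in limma was 0.00951 without that array and 0.00164 with only these 2 groups in the fit, with an adjusted p of 1.00 in both. It was 0.0398 with the number as a replicate block, but higher under other alternatives. On log2(intensity + 16) it was 0.133 with a difference of -0.34, with array weights 0.145 and without Het draining 3 0.183. At an adjusted p of 0.05 in limma 0 of 32 members passed, as did 0.0% of all genes, and 1, Timd4, had an unadjusted p under 0.05, against 3.39% of all genes. S100a9 was the 1 member whose groups did not overlap, against 1.58% of all genes. The median difference was 0.023 over the members and -0.0026 over all genes, with 17 members higher and 15 lower in KO; the smallest adjusted p of a member was 1.00.

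The same contrast in the non-draining node compares the genotypes away from the tumour. All 4 monocyte markers were lower in KO cells by sign, with a median difference of -0.17, and 3 of 4 plasmacytoid markers were higher, with a median of 0.20; none passed over all genes. Further genes of both lineages were split in sign: of 13 other monocyte genes 7 were higher and 6 lower (median 0.11), and of 15 other plasmacytoid genes 8 were higher and 7 lower (median 0.0090). Cx3cr1 had the smallest p: it was 46.4 ± 10.1 in KO and 65.3 ± 16.8 in Het arrays, a difference of -0.48 ± 0.20 (unadjusted p = 0.03 in limma, exact permutation p = 0.0571). Without Het non-draining 3 the Cx3cr1 difference was -0.32. S100a9 came next with -0.47 ± 0.27 (exact permutation p of 0.343), and this value rested on 1 array: without Het non-draining 3 it was -0.12. In limma 0 of 32 members passed at an adjusted p of 0.05, against 0.0% of all genes, and 1, Cx3cr1, had an unadjusted p under 0.05, against 2.48%. No member had groups that did not overlap, against 2.39% of all genes. The median was -0.066 over the members and 0.0048 over all genes, with 12 members higher and 20 lower in KO.

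Markers of lymphocytes and cDC1 were examined on the same arrays and in the draining node, and none passed at an adjusted p of 0.05 in limma. By sign, 11 of 11 B cell markers were higher and 11 of 11 T cell markers lower in KO non-draining cells. Of 19 cDC1 identity genes 17 were higher (median 0.21), and of all 19938 genes 10345. Unadjusted p in limma was under 0.05 for 2 B cell, 2 T cell and 4 cDC1 genes, against 2.48% of all genes. On the draining side 11 of 11 T cell markers (median 0.26), 9 of 11 B cell markers and 8 of 19 cDC1 identity genes were higher in KO cells. Of all 19938 genes 9792 were higher there. Summed B cell marker intensity was 840.3 to 1135 in KO and 578 to 1060.0 in Het non-draining arrays, and summed T cell marker intensity 841 to 2226 and 1279 to 2394. In the draining node the B cell sums were 748 to 938 in KO and 593 to 1016 in Het arrays, and the T cell sums 1261 to 2564 and 1089 to 2063. Ms4a1, which encodes CD20, had a KO minus Het difference of 0.73 ± 0.26 on the non-draining side. No B or T cell marker was under the floor on all arrays. The part of these cells in the member values, Fcgr2b among them, was not tested.

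**Figure D3:**
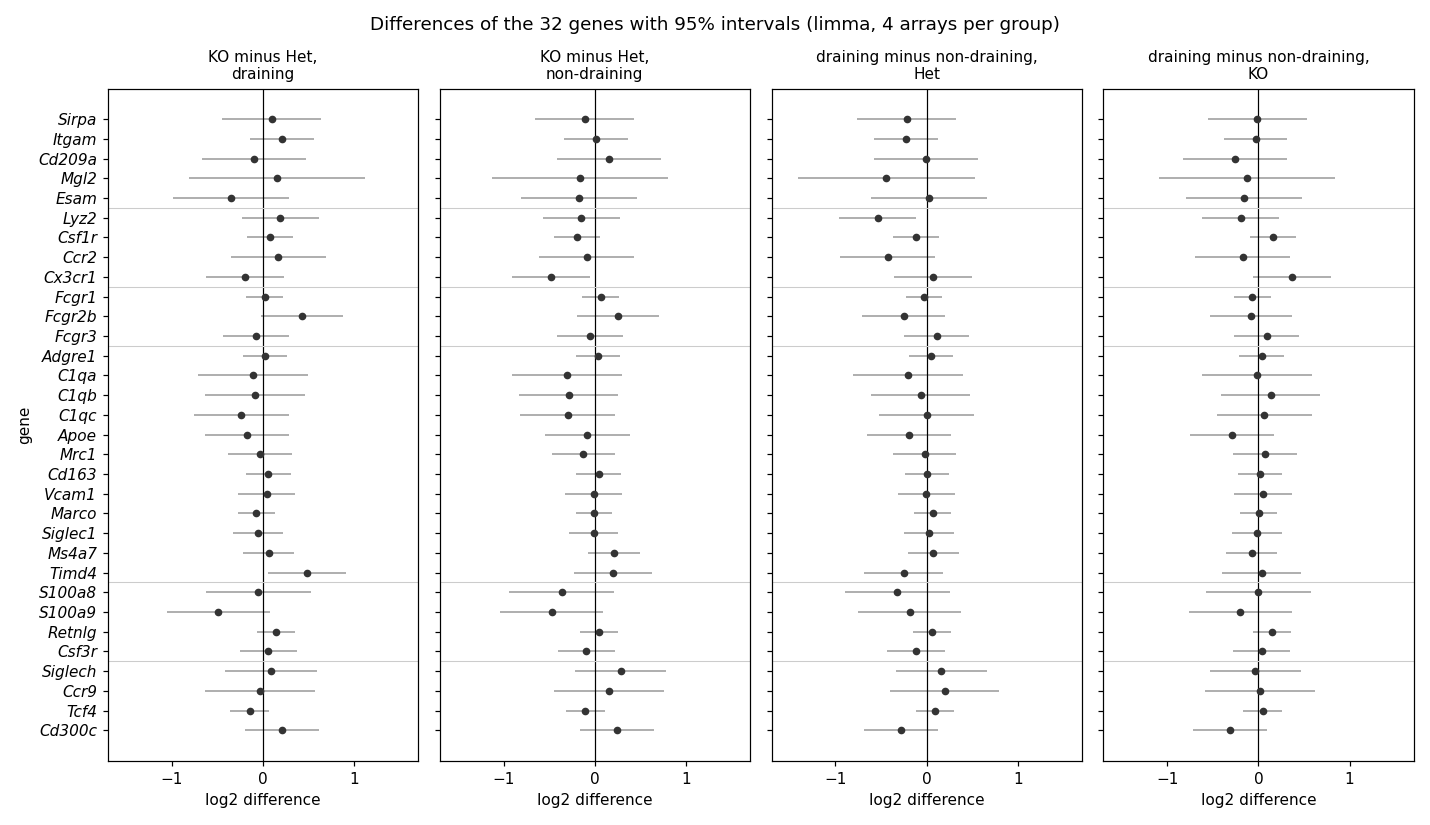
Log2 difference of each of the 32 genes in the 4 comparisons of 2 groups, with its 95% interval from limma (4 arrays per group), ordered by lineage. Intervals cross 0 for all genes except Timd4 in the first panel (0.055 to 0.91), Cx3cr1 in the second (-0.91 to -0.053) and Lyz2 in the third (-0.96 to -0.11), before adjustment over all genes.

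Cells of the tumour side were then set against cells of the other side within a genotype. In Het cells Lyz2 and Ccr2 stood lower on the tumour side. Lyz2 was 426 ± 63.9 in draining and 623 ± 135 in non-draining arrays, a difference of -0.53 ± 0.20 (95% interval -0.96 to -0.11, unadjusted p = 0.0163 in limma, exact permutation p = 0.0571). Lyz2 was lower on the draining side in 4 of 4 pairs of arrays with the same number, as were Cd300c, Csf1r and Itgam. The share of all genes with this order was not counted. With the number as a replicate block over all 4 groups, the unadjusted p of Lyz2 in limma was 0.012, with an adjusted p of 1.00. Ccr2 was 225 ± 40.4 and 313 ± 114, a difference of -0.43 ± 0.25 (exact permutation p = 0.2), and Het non-draining 2 held the highest value of both genes. Without that array the differences were -0.40 for Lyz2 and -0.21 for Ccr2. At an adjusted p of 0.05 in limma 0 of 32 members and 0.0% of all genes passed; 1 member, Lyz2, had an unadjusted p under 0.05, against 3.29% of all genes, and 0 had groups without overlap, against 2.4%. The median was -0.024 over members and 0.0081 over all genes.

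In KO cells the 2 members of smallest p were Cx3cr1, higher on the tumour side, and Cd300c, lower. Cx3cr1 was 60.0 ± 13.3 in draining and 46.4 ± 10.1 in non-draining arrays, a difference of 0.36 ± 0.20 (exact permutation p = 0.143). Cd300c was 163 ± 56.9 and 193 ± 17.5, a difference of -0.31 ± 0.19 (exact permutation p = 0.371). The Cx3cr1 difference was 0.24 without KO draining 2 and 0.23 without KO non-draining 2, and that of Cd300c -0.20, -0.14 and -0.49 without KO draining 1, 2 and 3. Within arrays 3 and 4 alone the Cd300c difference had the opposite sign, 0.22. In limma 0 of 32 members passed at an adjusted p of 0.05, against 0.0% of all genes, 0 had an unadjusted p under 0.05, against 2.11%, and 0 had groups without overlap, against 1.44%. The median was -0.0088 over members and 0.0018 over all genes.

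The interaction asks whether the genotype difference depends on the node. For all 4 monocyte markers the KO minus Het difference was higher in the draining than in the non-draining node by sign, with a median of 0.28, while of 13 other monocyte genes 6 were higher and 7 lower (median -0.026). In the same contrast 11 of 11 T cell markers were higher (median 0.69) and 17 of 19 cDC1 identity genes lower (median -0.22). Of the 32 members 18 were higher, and of all 19938 genes 9514. The part of T cell and cDC1 genes in the monocyte values was not tested. Csf1r had the smallest p (0.27 ± 0.17, unadjusted p = 0.126 in limma), followed by Lyz2 (0.34 ± 0.28). The Lyz2 value was 0.16 without KO draining 3, 0.20 without Het non-draining 2, 0.029 within arrays 1 and 2 and 0.65 within arrays 3 and 4. No member passed at an adjusted p of 0.05, against 0.0% of all genes, and none had an unadjusted p under 0.05, against 2.32%. Over both nodes together, S100a9 (-0.48 ± 0.19), Cx3cr1 (-0.34 ± 0.14), Timd4 (0.34 ± 0.14) and Fcgr2b (0.34 ± 0.15) had unadjusted p under 0.05 for KO against Het, that is 4 of 32 members against 3.49% of all genes, and 0 passed at an adjusted p of 0.05, against 0.0%. The sizes were uneven between arrays, since the S100a9 value was -0.30 without Het non-draining 3, and these means share the arrays of the 2 comparisons above. Within arrays 1 and 2 the values were -0.23 for S100a9, -0.19 for Cx3cr1 and 0.17 for Timd4, and within arrays 3 and 4 they were -0.73, -0.48 and 0.52. Over both genotypes, Lyz2 (-0.37 ± 0.14) and Cd300c (-0.30 ± 0.14) had unadjusted p under 0.05 for draining against non-draining, 2 of 32 members against 3.06% of all genes, and 0 passed at an adjusted p of 0.05, against 0.0%. Within arrays 1 and 2 these differences were -0.72 and -0.50, and within arrays 3 and 4 they were -0.0090 and -0.086. All 5 cDC2 markers were lower on the tumour side by sign, with a median of -0.13, as were 9 of 12 other cDC2 genes and 9508 of all 19938 genes. The smallest unadjusted p of the 5 markers in limma was 0.29, for Itgam. Itgam and Mgl2 were above the floor on only 6 and 8 arrays, and within Het cells Esam had the opposite sign (0.022).

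Other genes of the same lineages passed in no comparison of the genotypes either. Those named here for being above or under the floor were chosen after their values were seen. Those named with a difference were chosen for having among the smallest p of their list in KO against Het. Of 12 further cDC2 genes, 10 were above the floor on all arrays and 2, the lectin genes Clec4a4 and Clec10a, on none; the former encodes DCIR2, a defining marker of splenic cDC2. Irf4, a transcription factor gene of cDC2, had KO minus Het differences of -0.40 ± 0.20 on the draining and -0.43 ± 0.20 on the non-draining side, and Klf4, a factor gene of a cDC2 subset, by 0.44 ± 0.20 and 0.28 ± 0.20. Of 13 monocyte genes 6 were above the floor on every array and 5 on none, Vcan, F13a1 and Chil3 among the latter; the orphan receptor gene Nr4a1, also an immediate early gene, differed by 0.38 ± 0.17 in the draining node. Of 15 macrophage genes 6 were above the floor on every array and 6 on none, among them Mertk and Cd5l. By sign, 13 of the 15 were higher in KO draining cells, with a median of 0.055, and 7 in KO non-draining cells; of the 12 macrophage members 5 were higher and 7 lower in KO draining cells, with a median of -0.042. Of 15 further plasmacytoid genes 8 were above the floor on every array and Tlr7 and Dntt on none. Irf7, an interferon-inducible factor gene that plasmacytoid cells hold at a high level, differed by 0.78 ± 0.28 in the non-draining node (unadjusted p = 0.0118 in limma). Zeb2 came next there with -0.28 ± 0.19, and in the draining node Atp1b1 differed by 0.57 ± 0.23 (unadjusted p = 0.0236 in limma). No gene of these lists passed at an adjusted p of 0.05 in limma. In the draining node 1 of 12 cDC2, 3 of 13 monocyte, 0 of 15 macrophage, 0 of 19 neutrophil and 1 of 15 plasmacytoid genes had an unadjusted p under 0.05, against 3.39% of all genes. In the non-draining node the counts were 1, 1, 0, 0 and 1, against 2.48%. Among the monocyte genes counted, Vcan in the draining and Chil3 in the non-draining node were under the floor on every array.

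The members varied more between arrays of the same group than most genes did. The median SD within groups was 0.316 on the log2 scale over the 32 members and 0.179 over all genes; for the 16 members above the floor on every array it was 0.328, against 0.216 over the 10557 such genes. Mgl2 (0.75), Esam (0.48) and C1qa (0.46) had high SDs, and Marco (0.12), Fcgr1 (0.12) and Tcf4 (0.13) low ones. Part of the spread followed the array numbers. C1qa, C1qb, C1qc and Apoe were higher on arrays 3 and 4 than on arrays 1 and 2 in all 4 groups, with mean differences of 0.67, 0.65, 0.54 and 0.47. They were 4 of 32 members, and 2.38% of all genes had this order. No member was lower on arrays 3 and 4 in all 4 groups, against 1.91% of all genes. Summed intensities of 9 lymph node stromal markers were 608 to 812 on arrays 1 and 2 and 842 to 1026 on arrays 3 and 4, those of the 20 genes of other organs 774 to 950.0 and 1054 to 1340.0, and those of the 19 cDC1 identity genes 25635 to 32726 and 22073 to 28262. Those of 15 other plasmacytoid genes were 2638 to 3466 and 3526 to 4788. For the 15 other macrophage genes the sums overlapped, at 2189 to 2870 and 2586 to 3172. Those of the T cell, B cell and natural killer cell markers overlapped as well. Single genes of these lists were also higher on arrays 3 and 4 in all 4 groups, against 2.38% of all genes. They were 1 of the 9 stromal markers (Ccl19), 3 of the 20 genes of other organs (Gh, Tnni3 and Tnnt2) and 3 of the 15 plasmacytoid genes. Of the 15 other macrophage genes it was 1 (Selenop). Ccl19 ranged from 171 to 565 over all arrays, while Col1a1 ranged from 71.6 to 87.2. The part of stromal cells or of the array sets in the C1q and Apoe values was not tested.

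**Figure D4:**
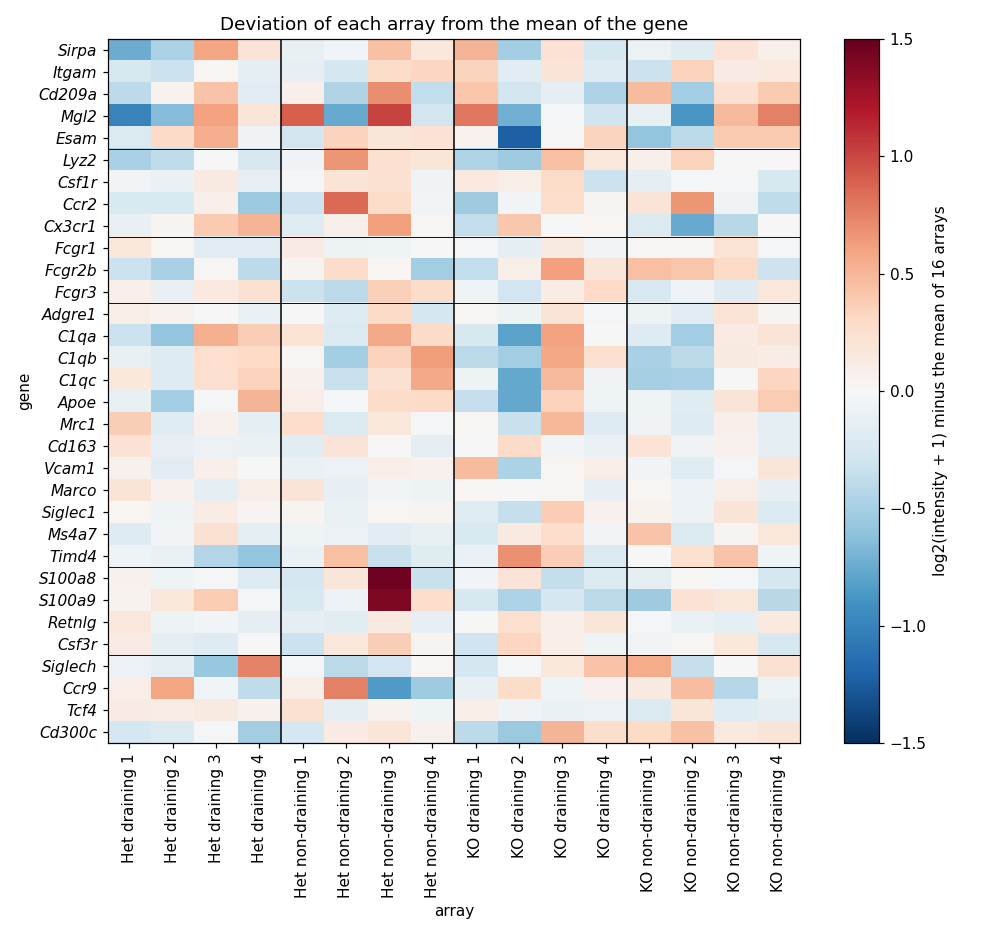
Log2(intensity + 1) of each of the 32 genes on each array minus the mean of that gene over 16 arrays (red above, blue below the mean), with arrays in columns by group and genes in rows by lineage. S100a8 and S100a9 are darkest red on Het non-draining 3, and the C1q and Apoe rows are redder on arrays 3 and 4 than on arrays 1 and 2 of each group.

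Relations between members were computed for 8 pairs over the 16 arrays, with permutation p values adjusted over the 8 pairs. The 16 points share their normalization and hold all 4 groups. C1qb and C1qc had Pearson's r = 0.897 (permutation p = 1e-05, the smallest that 100000 resamples give; adjusted p = 8e-05) and Spearman's rho = 0.897 (permutation p = 1e-05, adjusted p = 8e-05). The r was 0.882 without the 2 arrays farthest from the median, 0.811 within arrays 1 and 2 and 0.739 within arrays 3 and 4 (exact permutation p = 0.0158 and 0.0373, n = 8 each). C1qa had r = 0.837 with C1qb (rho = 0.847, permutation p = 0.00015 and 0.00011, adjusted p = 0.0004 and 0.00044) and r = 0.83 with C1qc (rho = 0.812, permutation p = 0.00011 and 0.00019, adjusted p = 0.0004 and 0.000507), or 0.839 and 0.777 without the 2 farthest arrays. These relations did not pass within the sets of arrays: C1qa and C1qb had r = 0.491 and 0.466 (exact permutation p = 0.225 and 0.251, n = 8 each), and C1qa and C1qc r = 0.623 and 0.56 (exact permutation p = 0.0971 and 0.156).

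The lectin genes Cd209a and Mgl2 had r = 0.795 (permutation p = 0.00051, adjusted p = 0.00102) and rho = 0.794 (permutation p = 0.00044, adjusted p = 0.00088), with r = 0.828 without the 2 farthest arrays. The relation held within arrays 1 and 2 (r = 0.733, exact permutation p = 0.0391) and within arrays 3 and 4 (r = 0.983, exact permutation p = 0.000174), n = 8 each. S100a8 and S100a9 had r = 0.76 (permutation p = 0.0206, adjusted p = 0.033) but rho = 0.294 (permutation p = 0.266, adjusted p = 0.298). Without the 2 farthest arrays, Het non-draining 3 among them, r was 0.0664, so the relation rests on those arrays; within arrays 1 and 2 it was 0.0975 and within arrays 3 and 4 0.895 (exact permutation p = 0.811 and 0.0161, n = 8 each). The other 3 pairs did not pass. The values were r = -0.333 and rho = -0.35 for Fcgr2b and Fcgr3 (permutation p = 0.204 and 0.184, adjusted p = 0.272 and 0.294), r = 0.223 and rho = 0.276 for Lyz2 and Csf1r (permutation p = 0.408 and 0.298, adjusted p = 0.411 and 0.298), and r = -0.222 and rho = -0.294 for Siglech and Ccr9 (permutation p = 0.411 and 0.266, adjusted p = 0.411 and 0.298). Without the 2 farthest arrays r was -0.361, 0.173 and -0.17 in that order, within arrays 1 and 2 -0.499, 0.172 and -0.418, and within arrays 3 and 4 -0.427, 0.495 and 0.205.

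**Figure D5:**
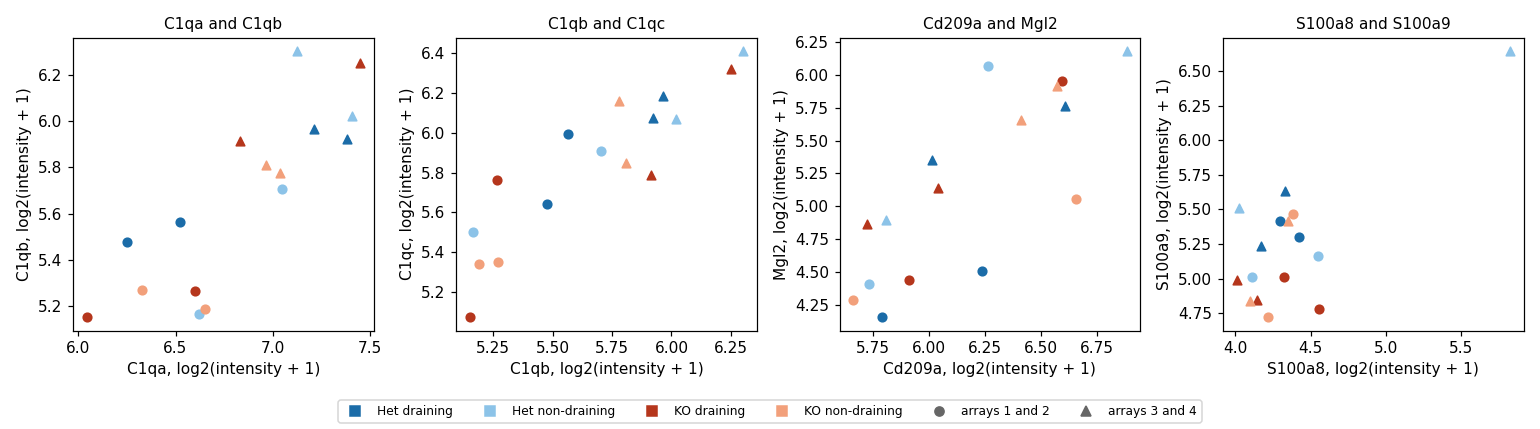
Log2(intensity + 1) of 4 pairs of genes over 16 arrays, 1 point per array, coloured by group; circles are arrays 1 and 2, triangles arrays 3 and 4. The points of C1qb and C1qc and of Cd209a and Mgl2 run along a rising line, and 1 triangle, Het non-draining 3, lies apart at the upper right for S100a8 and S100a9.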

How the data were processed

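RNA of 16 sorted samples was read on Affymetrix arrays, 1 sample per array. The deposited table holds linear intensity values that the authors made with RMA (named in the submitters' processing notes); the sources used here name no software version. RMA normalizes probes by quantiles and is known to compress dim genes, so differences near the floor may be understated. Of 35556 probe sets, 21789 carried 1 symbol, 1621 several and 12146 none in the platform annotation; 21698 gene IDs matched the GRCm38.p6 table, and 0 symbols changed. The brightest gave 19938 genes.

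Values were tested two-sided as log2(intensity + 1) with limma 3.58.1 (R 4.3.3), 4 groups in 1 fit with 12 residual degrees of freedom, checked on simulated data, and Benjamini-Hochberg adjustment over all genes at 0.05. Errors after ± are SEs of differences and SDs of means. Exact permutations used SciPy 1.17.1; plots matplotlib 3.10.9. Array values were given for the brightest member of each lineage, the 2 of smallest p in each comparison of 2 groups and in the interaction, and, chosen after their values were seen, the C1q genes, Apoe and S100a8. Members and lists were chosen with earlier results of these data known.

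Het arrays of the same number in both nodes deviated together from their group means (correlation over all genes between 0.199 and 0.314 for the 4 pairs). Of these 8 Het arrays, however, only 4 correlated best with the array of their own number, as did 4 of 8 KO arrays. Whether the numbers pair arrays is therefore not settled. In the other comparisons of 2 groups at least 1 pair had a correlation of 0.017 or lower. 0 arrays were identical. Alternatives were log2 without a pseudocount or with 16 added, no dim genes, the mean of all probe sets, quantile or median scaling, fixed and random replicate blocks, fewer groups, a robust prior, array weights, array sets and each array left out.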

Additional observations from a re-analysis of the deposited data

Results flagged for a closer look

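Within each group of 4 arrays, the highest or lowest array of each measured member was set against the other 3, which gave 128 tests. In 3 of them 1 array lay far from the others, where chance alone marks about 1 in 20. Cd163, the haemoglobin scavenger receptor gene, stood at 16.2 on Het draining 1, against 12.5 to 12.9 on the other 3 arrays, all under the floor. Siglec1, the CD169 gene, stood at 34.1 on Het non-draining 2, against 37.2 to 37.5. Retnlg, a resistin-like gene of neutrophils, stood at 20.5 on Het non-draining 3, against 16.5 to 17.0, again under the floor; this is the array on which S100a8 and S100a9 were highest. No member had genotype or node effects of opposite direction without overlap.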

How the results depend on the processing

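No member passed in any comparison under any of the 29 alternatives, with a smallest adjusted p of 0.274 in limma (Timd4, KO against Het over both nodes, only arrays 3 and 4; up to 1.00 under other alternatives). Over all genes, only arrays 3 and 4 gave 4, 2 and 5 calls for KO against Het (draining, non-draining, both) and 1 for the tumour side against the other in KO cells, and the replicate block gave 1 for KO against Het over both nodes, against 0 in each. The replicate block changed no other call. The median member difference of the interaction was 0.18 with array weights against 0.057. The S100a9 difference of KO from Het in the non-draining node turned to 0.0052 within arrays 1 and 2, and the Cd300c difference of draining from non-draining KO cells to 0.22 within arrays 3 and 4; the cause was not tested. Within arrays 1 and 2 and within arrays 3 and 4, r was 0.491 and 0.466 for C1qa and C1qb and 0.623 and 0.56 for C1qa and C1qc, with 8 arrays each; it was 0.0975 within arrays 1 and 2 for S100a8 and S100a9, and 0.205 within arrays 3 and 4 for Siglech and Ccr9, the opposite sign. Members near the floor limit what can be seen: 16 of 32 were not above it on every array.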
